A study of Mus musculus with 8 samples.

Results

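Zinc enters the cytosol through ZIP carriers of the Slc39 family, leaves it through ZnT carriers of the Slc30 family, and is bound there by metallothioneins. The 10 genes described here are 5 ZIP carriers (Slc39a5, Slc39a7, Slc39a8, Slc39a11, Slc39a14), 3 ZnT carriers (Slc30a2, Slc30a5, Slc30a7) and 2 metallothioneins (Mt1, Mt2), found by gene name among 36432 gene IDs. They were chosen with the values of the comparison below already known, so their levels, fold changes and counts are given as a description, and no test result on them is read as evidence. All 10 passed the minimum on low values, as did 11860 genes in all.

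Poly(A) RNA was sequenced from the whole pancreas of 8 mice aged 6 to 8 weeks and of mixed strain. In 4 mice the genotype was Ptf1a-Cre +/KI; Gata6 lox/lox, and 4 controls were Ptf1a-Cre +/KI. All 8 mice therefore carried Cre recombinase knocked in at 1 copy of Ptf1a, which pancreatic progenitors and, later, acinar cells express, so cells that never express Ptf1a should keep Gata6. The comparison addresses what the loss of the transcription factor Gata6 does to the transcriptome of the adult gland. Levels are rescaled FPKM, the deposited FPKM (fragments scaled for transcript length) divided by 100000, and fold changes are log2 differences of (rescaled FPKM + 1). How the deposited FPKM were scaled to library size is not given. They summed to 2.34e+10, 8.28e+10, 6.8e+10 and 1.3e+11 in the Gata6 lox/lox libraries, against 1.42e+11 to 1.86e+11 in the controls.

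Gata6 had 4.81, 5.12, 4.90 and 4.12 rescaled FPKM in the 4 Gata6 lox/lox libraries, against 2.76, 2.12, 2.62 and 2.45 in the controls. It was thus higher, not lower, in every library that should lack it (log2 0.72, SE 0.11, limma adjusted p = 0.0443, exact two-sided permutation p = 0.0286, the smallest that 4 against 4 can give). In 22 other settings the sign was positive throughout, but the adjusted p was under 0.05 in only 2 of them. Leaving out any 1 control (0.0853, 0.180, 0.150 and 0.114 without controls 1 to 4) or labelled library 1, 2 or 3 (0.112, 0.0537 and 0.132) ended the call. Within the BKD titles the log2 difference was 0.57 and within the ASK and BSH titles 0.85. A gene-level FPKM does not resolve the floxed exons, so the deletion itself was not checked, and the first group is called labelled libraries 1 to 4. Implied fragments numbered 4815873 to 7451554 in the labelled libraries and 6020901 to 7304521 in the controls. Labelled libraries 1, 3 and 4 and control 1 have titles starting with BKD and expressed a Y-linked gene, while labelled library 2 (BSH) and controls 2 to 4 (ASK) expressed Xist. Title prefix and sex are thus tied together and partly tied to genotype.

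The labelled libraries differed widely in acinar RNA. All 17 acinar markers were above 0 in every library, and they summed to 2497, 200321, 34608 and 252547 rescaled FPKM in labelled libraries 1 to 4, whereas the controls had 383841 to 532977. The 12 macrophage and neutrophil markers summed to 883, 285, 813 and 232, against 125 to 215 in the controls, and the 9 fibroblast and stellate cell markers to 963, 394, 1367 and 446, against 234 to 336. None of these markers was at 0 in any library. In the macrophage and neutrophil list, S100a8 averaged 9.70 ± 11.4 in the labelled libraries, against 11.2 ± 11.4 in the controls (SD, n = 4 each). S100a9 averaged 8.07 ± 9.44, against 8.34 ± 7.49, so neither was higher by mean. Fewer cells of a type and less RNA per cell cannot be told apart in whole tissue. The part of these differences in the values that follow was not tested.

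The pancreas is rich in zinc, and acinar cells secrete zinc with their digestive enzymes, some of which are zinc metalloenzymes. Within the family each carrier works at its own membrane: some ZIP carriers bring zinc in from outside, others release it from internal stores, and ZnT carriers fill secretory vesicles and the Golgi or export zinc. Free zinc is sensed by the transcription factor MTF-1, which binds metal response elements in metallothionein promoters.

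The promoter windows of 3 genes are shown as a description, and whether MTF-1 acts on them was not tested. Mt1 and Mt2 are textbook MTF-1 targets, and all 4 labelled libraries were far below all controls for Slc39a11. The sequences are the 250 bases before each RefSeq start on GRCm38.p6, matched by symbol, and capitals mark matches to the metal response letters TGCACNC or TGCGCNC on either strand. Mt2 is chr8:94172368-94172617 and Mt1 chr8:94178839-94179088, both on the plus strand. The Slc39a11 windows 1 and 2 are chr11:113565816-113566065 and chr11:113650093-113650342, both on the minus strand.
Mt2: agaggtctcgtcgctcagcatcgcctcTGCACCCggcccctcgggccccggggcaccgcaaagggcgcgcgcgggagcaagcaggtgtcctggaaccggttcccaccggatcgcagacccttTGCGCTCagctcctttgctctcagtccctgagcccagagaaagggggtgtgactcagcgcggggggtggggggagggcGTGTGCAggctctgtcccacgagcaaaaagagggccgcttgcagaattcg
Mt1: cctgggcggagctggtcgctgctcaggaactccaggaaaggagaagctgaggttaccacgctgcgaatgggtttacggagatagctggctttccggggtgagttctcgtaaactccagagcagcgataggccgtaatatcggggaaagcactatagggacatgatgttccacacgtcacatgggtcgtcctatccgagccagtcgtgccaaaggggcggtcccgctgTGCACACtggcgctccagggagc
Slc39a11 window 1: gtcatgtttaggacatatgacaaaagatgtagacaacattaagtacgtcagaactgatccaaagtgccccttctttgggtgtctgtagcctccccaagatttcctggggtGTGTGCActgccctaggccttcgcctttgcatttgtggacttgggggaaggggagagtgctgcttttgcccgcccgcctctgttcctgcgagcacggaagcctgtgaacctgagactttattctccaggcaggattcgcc
Slc39a11 window 2: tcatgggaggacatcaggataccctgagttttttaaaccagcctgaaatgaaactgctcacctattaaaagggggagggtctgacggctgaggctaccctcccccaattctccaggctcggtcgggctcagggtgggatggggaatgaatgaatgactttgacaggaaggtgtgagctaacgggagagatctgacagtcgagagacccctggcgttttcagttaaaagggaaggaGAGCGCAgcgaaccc

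The Mt2 window held 3 matches, 223, 128 and 50 bases before the start, and the Mt1 window held 1, 23 bases before it. Bases after the RefSeq start or farther before it were not searched, so these are not counts for a whole promoter. The Slc39a11 windows held 1 match each, 140 and 15 bases before their starts. Such letters are common: 21.4% of all 32851 RefSeq windows of this length held at least 1 match and 5.17% held several. Among the 12 windows found for 9 of the 10 genes, 8 held a match, including that of Slc30a5, a gene whose groups overlapped, while the single windows of Slc39a7 and Slc30a7 held none. The letters GATA with A or T before and A or G after them, on either strand, stood in 3 of the 12 windows, those of Mt1 (172 bases before the start), Slc30a7 and 1 of 2 for Slc39a8, against 26.5% of all windows. No GATA letters were found in either Slc39a11 window. A match is a description of letters and not of a bound site. All 250 bases of the Mt2 window also lie in an exon that GENCODE M21 gives to Gm45774, and the last 7 of the Mt1 window lie in its annotated Mt1 exon.

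Levels per length put the metallothioneins first. The controls averaged 1043 ± 499 rescaled FPKM for Mt1, 467 ± 265 for Mt2, 115 ± 26.7 for Slc39a5, 37.9 ± 3.0 for Slc39a7 and 21.2 ± 3.39 for Slc39a11 (SD, n = 4 each). Next came Slc39a14 at 6.55 ± 1.06, Slc30a5 at 6.48 ± 0.86 and Slc30a2 at 6.43 ± 1.33, then Slc39a8 at 3.39 ± 0.37 and Slc30a7 at 2.25 ± 0.27. Slc39a14, Slc30a5 and Slc30a2 did not differ from each other beyond their spread. The SDs of Mt1 and Mt2 also overlap, but within each control Mt1 was above Mt2, at a ratio of 2.10 to 3.04. By control mean Mt1 ranked 106, Mt2 161 and Slc39a5 351 of 11860 genes, whereas Slc39a8 ranked 5833 and Slc30a7 7513.

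In the labelled libraries the first 4 genes kept their order by mean, and Slc39a11 moved below Slc30a5, Slc39a8 and Slc39a14. Labelled means were 416 ± 370 for Mt1, 176 ± 115 for Mt2, 31.4 ± 32.8 for Slc39a5 and 25.3 ± 8.67 for Slc39a7, followed by 6.58 ± 0.90 for Slc30a5 and 6.16 ± 6.26 for Slc39a8. Slc39a14 followed at 4.72 ± 2.13, Slc39a11 at 4.40 ± 1.86, Slc30a7 at 2.44 ± 0.069 and Slc30a2 at 2.42 ± 2.20 (SD, n = 4 each). From Slc30a5 down, neighbours in this order did not differ beyond the larger of their SDs, except Slc39a11 and Slc30a7. The means of Mt1 and Mt2, and those of Slc39a5 and Slc39a7, did not differ beyond the larger SD either. Mt1 was above Mt2 in each labelled library. Slc39a5 was below Slc39a7 in labelled library 1 (0.216 against 14.0) and labelled library 3 (7.12 against 24.3).

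**Figure D1:**
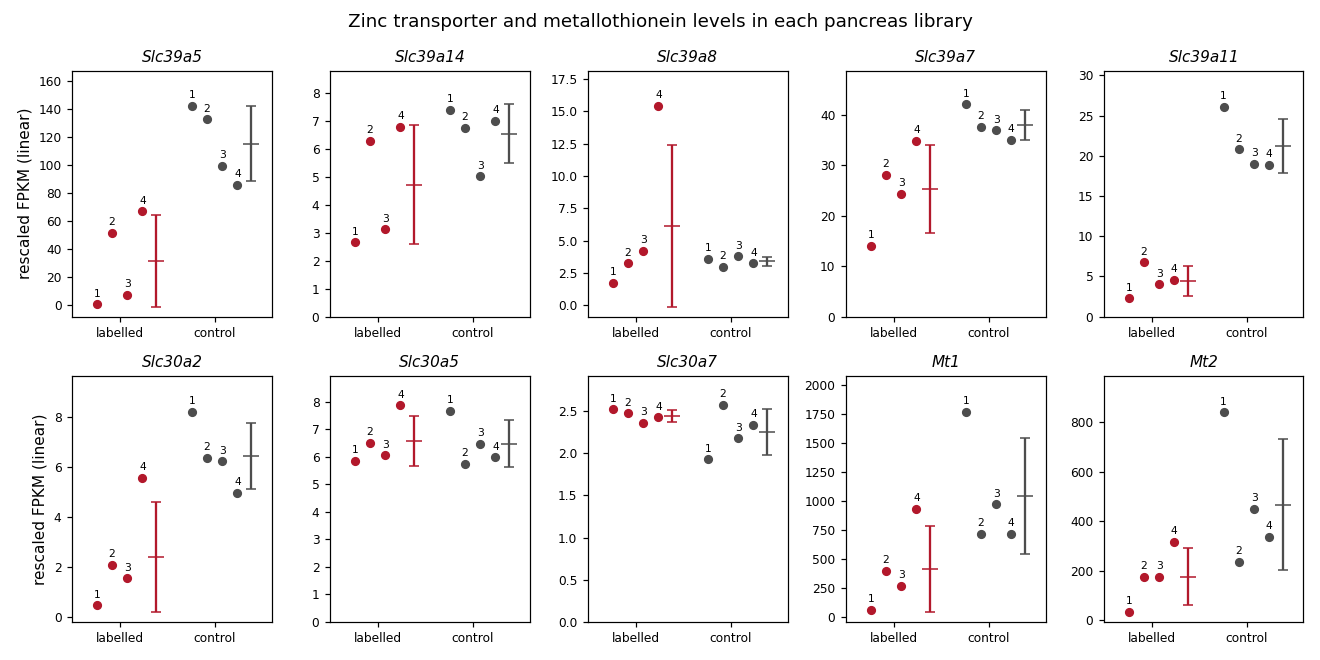
Level of each of the 10 genes (rescaled FPKM, linear axis, 1 panel per gene) in the 4 labelled libraries, left, and the 4 controls, right; points are libraries and bars the mean and SD. All labelled points of Slc39a5, Slc39a7 and Slc39a11 lie below all control points, and Slc39a8 has 1 labelled point at 15.4 far above the others.

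By sign, 7 of the 10 genes had a negative log2 fold change and 3 a positive one. For Slc39a5, Slc39a7 and Slc39a11, 3 of 10, every labelled library was below every control, as it was for 7.62% of the 11860 genes. No gene of the 10 had every labelled library above every control, as 10.9% of all genes did. Only Slc39a11 was among the 49 genes (0.413%) with a limma adjusted p under 0.05, and 30.1% of all genes had an unadjusted p under 0.05. Without labelled library 4 the count among the 10 was 4 (Slc39a5, Slc39a11, Slc30a2 and Mt1), and 1383 higher and 1209 lower genes passed in all. Because the genes were picked from this comparison, nothing is read from these counts.

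The importers of the outer membrane showed 3 different patterns. Slc39a5 (ENSMUSG00000039878, mm9 chr10:127832990-127838280) encodes ZIP5, which in mouse lies on the basolateral membrane of acinar cells and enterocytes. It had 0.216, 51.6, 7.12 and 66.8 rescaled FPKM in labelled libraries 1 to 4, against 142, 133, 99.4 and 86.0 in controls 1 to 4. These levels were 0.188%, 44.8%, 6.19% and 58.1% of the control mean, so labelled libraries 1 and 3 were low and 2 and 4 much nearer to the controls. The value in labelled library 1 rested on 10.9 implied fragments and the others on 393 to 1038. The log2 fold change was -3.05 (SE 1.16). It was -1.89 without labelled library 1 and -0.93 (SE 0.27) without labelled libraries 1 and 3. The gene lies inside the Ankrd52 locus, where Ankrd52 itself had 2.64 to 3.12 rescaled FPKM in the labelled libraries and 2.24 to 2.48 in the controls.

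Slc39a14 (ENSMUSG00000022094, mm9 chr14:70703274-70751232) encodes ZIP14, a carrier of zinc, iron and manganese. Its levels were 2.66, 6.30, 3.12 and 6.80 rescaled FPKM in the labelled libraries, against 7.41, 6.77, 5.02 and 7.01 in the controls. Labelled libraries 1 and 3 were below every control, and labelled libraries 2 and 4 lay among them (log2 -0.47, SE 0.27). Only 11.6 to 25.2 implied fragments stood behind the control values, and 23.2 and 22.2 behind those of labelled libraries 2 and 4. The deposited intervals are thus wide in these libraries.

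Slc39a8 (ENSMUSG00000053897, mm9 chr3:135488243-135551536) encodes ZIP8, the closest relative of ZIP14, which also carries manganese. It had 1.75, 3.25, 4.21 and 15.4 rescaled FPKM in labelled libraries 1 to 4, against 3.57, 2.95, 3.79 and 3.25 in the controls. Labelled library 4 alone stood at 455% of the control mean and labelled library 1 at 51.5%, and the groups overlapped (log2 0.36, SE 0.48). Without labelled library 4 the sign turned (log2 -0.15).

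The importers of internal membranes were both lower in every labelled library. Slc39a7 (ENSMUSG00000024327, mm9 chr17:34162979-34168635) encodes ZIP7, which releases zinc from the endoplasmic reticulum to the cytosol. It had 14.0, 28.1, 24.3 and 34.8 rescaled FPKM in the labelled libraries, against 42.1, 37.6, 36.9 and 35.0 in the controls. Labelled library 4 at 91.8% of the control mean all but touched control 4, and labelled library 1 was lowest at 37.0% (log2 -0.63, SE 0.27). H2-Ke6, which overlaps it, had 5.81 to 9.31 in the labelled libraries and 5.71 to 8.30 in the controls.

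Slc39a11 (ENSMUSG00000041654, mm9 chr11:113106167-113511393) encodes ZIP11, a ZIP of a subfamily of its own that is found on intracellular membranes. Its levels were 2.26, 6.76, 3.99 and 4.60 rescaled FPKM in labelled libraries 1 to 4, against 26.1, 20.8, 19.0 and 18.8 in the controls. All labelled libraries lay far below all controls, at 10.7%, 31.9%, 18.8% and 21.7% of the control mean, and labelled library 4 lay between labelled libraries 3 and 2. The ratio of group means was 0.208, and the log2 fold change was -2.09 (SE 0.26). Without labelled libraries 1 and 3 it was -1.74 (SE 0.21), while that of Slc39a5 came down to -0.93. Labelled libraries 1 and 4 rested on 28.8 and 29.0 implied fragments and labelled libraries 2 and 3 on 162 and 88.9, against 136 to 342 in the controls. The place of labelled library 4 among the labelled libraries is thus uncertain.

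The long Slc39a11 locus also holds Sstr2, a somatostatin receptor, and Cog1, a Golgi trafficking protein. Sstr2 had 0.265, 0.838, 0.795 and 0.950 rescaled FPKM in the labelled libraries, against 2.38, 1.78, 1.33 and 2.17 in the controls, and its groups did not overlap either. Cog1 had 3.15 to 4.24 in the labelled libraries and 2.72 to 4.64 in the controls. The strand of the libraries is not given, and whether reads were shared between the overlapping genes was not checked.

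Of the exporters, the granule carrier was low in 3 of 4 labelled libraries, and the carriers of the Golgi and early secretory pathway lay near the controls. Slc30a2 (ENSMUSG00000028836, mm9 chr4:133899096-133910399) encodes ZnT2, a vesicle carrier of zymogen granules and of milk secretion. It had 0.475, 2.09, 1.55 and 5.56 rescaled FPKM in labelled libraries 1 to 4, against 8.19, 6.36, 6.21 and 4.96 in the controls. Labelled libraries 1 to 3 were below every control, at 7.39%, 32.5% and 24.2% of the control mean, and labelled library 4 lay among them (log2 -1.31, SE 0.40).

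Slc30a5 (ENSMUSG00000021629, mm9 chr13:101572604-101603382) encodes ZnT5, which works as a pair with ZnT6 in the early secretory pathway. It had 5.87, 6.52, 6.06 and 7.87 rescaled FPKM in the labelled libraries, against 7.68, 5.76, 6.48 and 5.98 in the controls (log2 0.02, SE 0.14). Slc30a7 (ENSMUSG00000054414, mm9 chr3:115641891-115710324) encodes ZnT7 of the Golgi. It had 2.52, 2.47, 2.36 and 2.42 in the labelled libraries, against 1.93, 2.57, 2.18 and 2.34 in the controls (log2 0.09, SE 0.11). For both genes the groups overlapped and each labelled library lay close to the control mean.

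The 2 metallothioneins, small cysteine-rich proteins that bind zinc and copper, are neighbours in the genome with 5521 bases between Mt2 and Mt1. Mt1 (ENSMUSG00000031765, mm9 chr8:96702989-96704225) had 62.4, 399, 272 and 931 rescaled FPKM in labelled libraries 1 to 4, against 1769, 716, 971 and 716 in the controls. Mt2 (ENSMUSG00000031762, mm9 chr8:96696518-96697467) had 34.5, 176, 175 and 317 in the labelled libraries, against 841, 236, 452 and 339 in the controls. For each gene labelled libraries 1 to 3 were below every control and labelled library 4 lay among them for Mt1. For Mt2, labelled library 4 was above control 2 only.

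The log2 fold change of Mt1 was -1.77 (SE 0.77) and that of Mt2 -1.61 (SE 0.69). Without labelled library 1 they were -1.05 and -0.96. The summed level of the pair was 96.9, 575, 447 and 1248 rescaled FPKM in labelled libraries 1 to 4, against 2610, 951, 1422 and 1055 in the controls, so control 1 alone was much higher than the other controls. The ratio of Mt1 to Mt2 was 1.81, 2.27, 1.55 and 2.93 in the labelled libraries, against 2.10, 3.04, 2.15 and 2.11 in the controls. The ratio thus stayed between 1.55 and 3.04 while the levels differed over a wide range.

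Across the labelled libraries the genes fell into a few profiles. The median acinar marker stood at -7.00, -1.11, -3.29 and -0.76 in labelled libraries 1 to 4 on the log2 scale relative to the control mean. Slc39a5 stood at -6.55, -1.11, -3.81 and -0.75, where adding 1 limits how low a gene near 0 can go: in labelled library 1 it was at 0.188% of its control mean. Slc39a5 per 1000 rescaled FPKM of Cpa1, a zinc carboxypeptidase that acinar cells secrete, was 0.590, 3.73, 2.22 and 4.61 in the labelled libraries, against 3.65, 3.85, 3.25 and 3.75 in the controls, so relative to Cpa1 it was below every control in labelled libraries 1 and 3, among them in 2 and above them in 4.

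Mt1 stood at -3.94, -1.28, -1.83 and -0.06 and Slc30a2 at -2.32, -1.25, -1.52 and -0.16 on that scale. Both kept the order of the acinar median with a smaller span. Slc39a11 differed from these at -2.76, -1.51, -2.14 and -1.98, with labelled library 4 below labelled library 2. The ratio of Slc39a11 to Slc39a7 was 0.161, 0.241, 0.164 and 0.132 in the labelled libraries, against 0.621, 0.554, 0.516 and 0.538 in the controls. Labelled library 4 gave the lowest of all 8 ratios, but its Slc39a11 value rested on 29.0 implied fragments and that of labelled library 1 on 28.8. Its gap to labelled libraries 1 and 3 is thus not resolved. The ratio of Slc30a2 to Slc30a5 was 0.0811, 0.321, 0.256 and 0.706, against 1.07, 1.10, 0.959 and 0.83 in the controls.

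**Figure D2:**
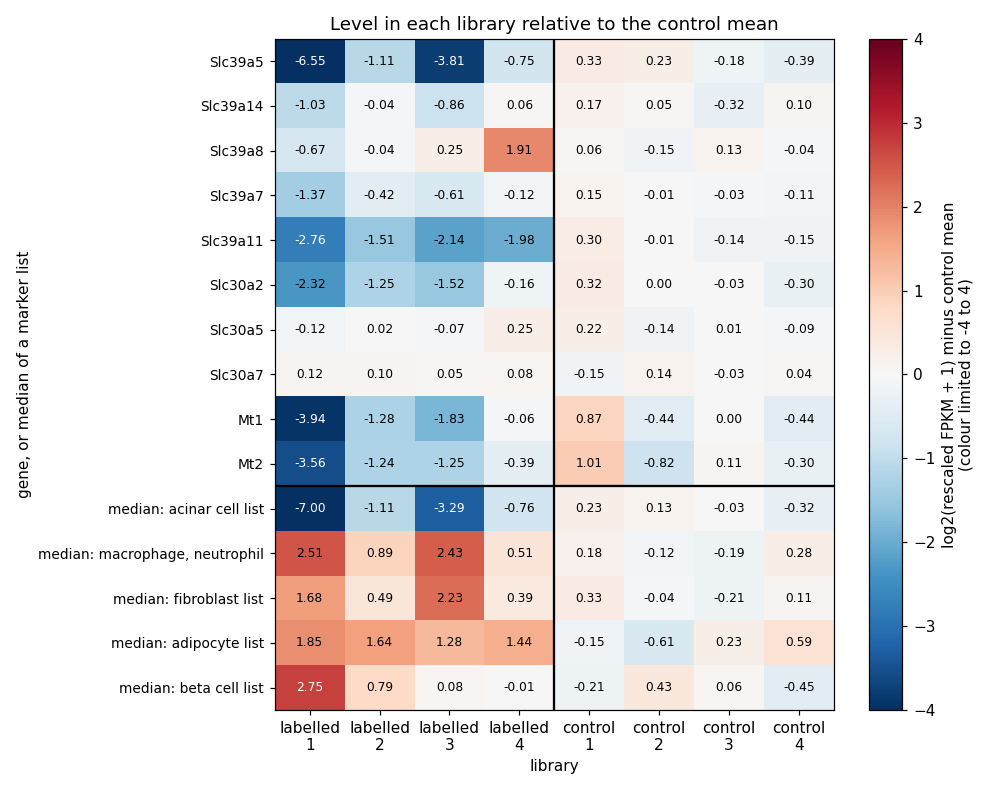
Log2(rescaled FPKM + 1) minus the control mean for each of the 10 genes and for the median of marker lists (rows) in labelled libraries 1 to 4, left, and controls 1 to 4, right; colour and printed value give the difference. Slc39a5 and the acinar median (-7.00, -1.11, -3.29 and -0.76) are both lowest in labelled libraries 1 and 3, whereas Slc39a11 stays between -2.76 and -1.51 and Slc30a5 and Slc30a7 stay near 0.

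Likeness between profiles was measured as the root mean square (RMS) difference over the 8 libraries of log2(rescaled FPKM + 1) minus the control mean. Among the 10 genes the nearest pairs were Slc30a5 and Slc30a7 (0.21), Slc39a14 and Slc39a7 (0.24), and Mt1 and Mt2 (0.32). Slc39a5 and Slc30a7 were farthest apart (2.78). All genes were measured in the same 8 libraries, which differ in acinar RNA and depth, so likeness between profiles is no sign of a shared function.

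Among the other protein-coding genes tested, genes near to Slc39a5 were Tff2 (RMS 0.145), a secreted trefoil peptide and 2210010C04Rik (0.221). Tff2 had 38.1, 1627, 272 and 2289 rescaled FPKM in labelled libraries 1 to 4, whereas the controls had 3264 to 4259. The nearest to Slc39a11 were Apip (0.182) and Cth (0.305), both of sulphur amino acid metabolism, and Azgp1 (0.262), a secreted glycoprotein. Apip had 4.14, 8.14, 5.93 and 5.82 in the labelled libraries, against 25.0 to 36.2 in the controls, and Cth had 1.43, 6.80, 4.26 and 5.58, against 13.2 to 20.5. Azgp1 had 0.018, 0.648, 0.063 and 0.933, against 3.28 to 5.12 in the controls. In these genes too labelled library 4 was below every control. It was below labelled library 2 in Apip and Cth, but the highest labelled library in Azgp1. The labelled values of Apip rested on 6.81 to 48.0 implied fragments.

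The nearest gene to Mt1 was Mt2 (0.315), followed by P4hb (0.330) and Prdx4 (0.343), both of oxidative protein folding in the endoplasmic reticulum. The nearest to Mt2 after Mt1 were Spink3 (0.452), an acinar trypsin inhibitor, and Gm10073 (0.467). Slc30a2 lay nearest to Galk1 (0.114), a galactose kinase, then Rabac1 (0.142) and Chchd7 (0.161). Slc39a7 lay nearest to Dctpp1 (0.035), then Mrpl17 and Naprt1 (0.077 each).

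The nearest to Slc39a8 were Psmd13 (0.294), a proteasome subunit, Slc6a4 (0.295), the serotonin transporter, and Aldh16a1 (0.329). Psmd13 had 18.1, 17.6, 21.2 and 104 rescaled FPKM in labelled libraries 1 to 4, whereas the controls had 17.8 to 29.5, and Aldh16a1 had 4.73, 6.77, 10.2 and 28.5, against 4.14 to 7.89. The values in labelled library 4 rested on only 4.89 implied fragments for Psmd13 and 3.61 for Aldh16a1, against 342 for Slc39a8. The deposited intervals are thus very wide in these neighbours. Slc39a14 lay nearest to Preb (0.114), Slc7a1 (0.124) and 0610007L01Rik (0.124). Slc30a5 lay nearest to Ctu1 (0.048), Ap3m1 (0.057) and Vta1 (0.068), and Slc30a7 to Mau2 (0.063), E2f5 (0.067) and Slain2 (0.067), genes that like them hardly varied.

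Fits split by title prefix gave differences of unequal size. With the 4 BKD libraries alone (3 labelled, 1 control) the log2 fold change was -2.59 (SE 0.43) for Slc39a11, and with the ASK and BSH libraries alone (1 labelled, 3 controls) it was -1.41 (SE 0.13). For Slc39a5 these values were -4.03 (SE 2.36) and -1.0 (SE 0.30), for Mt1 -2.81 and -0.99, for Mt2 -2.74 and -0.91, for Slc30a2 -1.66 and -1.14, and for Slc39a7 -0.85 and -0.37. The signs of these 6 genes were thus the same within each prefix. Control 1, the lone BKD control, was the highest control for each of the 6. The BKD titles also hold labelled libraries 1 and 3, which had the least acinar RNA. The prefix and the libraries that carry it cannot be told apart in these sizes. The lone library of a group is assumed here to vary like the others. Slc39a14 was at -0.78 and 0.02, Slc39a8 at 0.43 and -0.02, Slc30a5 at -0.20 and 0.09, and Slc30a7 at 0.23 and 0.05.

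Direction also depended on how libraries were scaled. As deposited, the median log2 fold change of all tested genes was 0.10. When the genes outside 71 acinar enzyme and granule genes were set to an equal sum it was 0.77, and when libraries were scaled to implied fragment totals it was 1.11. Under these scalings Slc39a7 stood at 0.23 and 0.71 and Slc39a14 at 0.27 and 0.68, so their sign turned. It stayed negative, at -0.39 for Slc39a7 and -0.26 for Slc39a14, when only protein-coding genes outside the enzymes were set to an equal sum, an alternative added after seeing the data. It was negative as well under median-ratio (-0.81 and -0.62) and quantile scaling (-0.45 and -0.60). Relative to the median of all genes, Slc39a7 was at -0.54 and -0.41 and Slc39a14 at -0.50 and -0.44.

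Slc39a5 (-2.41 and -2.01), Slc39a11 (-1.31 and -0.87), Slc30a2 (-0.72 and -0.36), Mt1 (-0.89 and -0.39) and Mt2 (-0.73 and -0.24) kept a negative log2 fold change under the equal sum and the implied totals. Slc39a8 (1.01 and 1.40), Slc30a5 (0.79 and 1.22) and Slc30a7 (0.73 and 1.08) were positive under both. Relative to the median of all genes Slc30a5 was at 0.02 and 0.11 and Slc30a7 at -0.04 and -0.04.

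**Figure D3:**
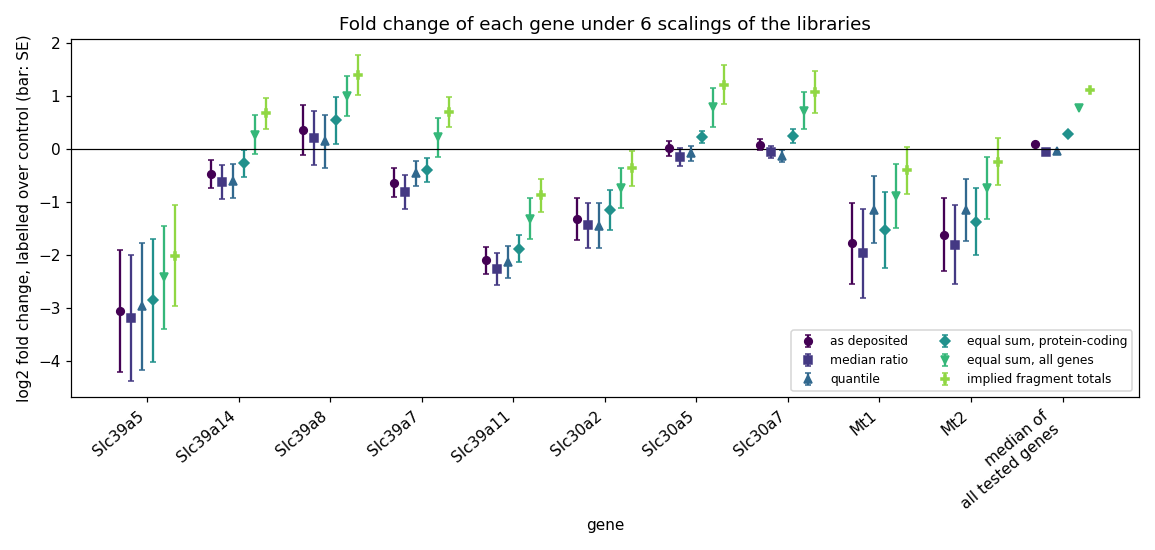
Log2 fold change, labelled over control, of each of the 10 genes and of the median of all tested genes under 6 scalings of the libraries; bars are the SE. Slc39a5, Slc39a11, Slc30a2, Mt1 and Mt2 stay below 0 in each scaling drawn, whereas Slc39a7 and Slc39a14 cross 0 with the equal sum and the implied fragment totals, where the median of all genes is 0.77 and 1.11.

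None of the other zinc genes passed the test across all genes. Of 20 further genes listed (9 ZIP carriers, 7 ZnT carriers, and Mt3, Mt4, Mtf1 and Tmem163), 11 were tested and 0 had a limma adjusted p under 0.05, while 1 higher and 2 lower had an unadjusted p under 0.05, where 30.1% of all tested genes did. Their median log2 fold change was 0.01, against 0.10 for all tested genes, with 6 positive and 5 negative. None of these genes passed in the other settings except without labelled library 4, where Slc39a6 (log2 0.91, adjusted p = 0.0338) and Slc39a9 (log2 -0.44, adjusted p = 0.0425) did.

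Slc39a6, the outer membrane carrier ZIP6, had 2.88, 1.62, 2.69 and 0.945 rescaled FPKM in labelled libraries 1 to 4, whereas the controls had 0.680 to 0.992 (log2 0.72, SE 0.24, limma adjusted p = 0.118), and its control values rested on 0.506 to 3.93 implied fragments. Slc39a9, the Golgi carrier ZIP9, had 4.08, 5.0, 4.24 and 5.89, against 6.04 to 6.98 in the controls (log2 -0.36, SE 0.13, limma adjusted p = 0.132). Slc30a4, the vesicle carrier ZnT4, had 2.51, 2.93, 2.62 and 3.30, against 3.44 to 3.91 in the controls (log2 -0.28, SE 0.11, limma adjusted p = 0.141). For Slc39a9 and Slc30a4 the groups did not overlap, but both were positive, at 0.40 each, under the equal sum.

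The other tested genes lay between -0.22 and 0.61. Slc30a1 (ZnT1, the exporter of the outer membrane and a textbook MTF-1 target) was at -0.22 (SE 0.12) and Mtf1 itself at 0.14 (SE 0.19). Of the ZIP carriers, Slc39a1 was at 0.22 (SE 0.22), Slc39a3 at 0.08 (SE 0.16) and Slc39a13 at 0.01 (SE 0.20). Slc30a6, whose product ZnT6 pairs with ZnT5, was at -0.13 (SE 0.15), Slc30a9 at -0.01 (SE 0.11), and Slc30a8, the carrier of insulin granules, at 0.61 (SE 0.51). Of the 9 genes not tested for low level, Slc30a10 and Mt4 were listed at 0 in all 8 libraries, and Mt3 had at most 0.397.

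**Figure D4:**
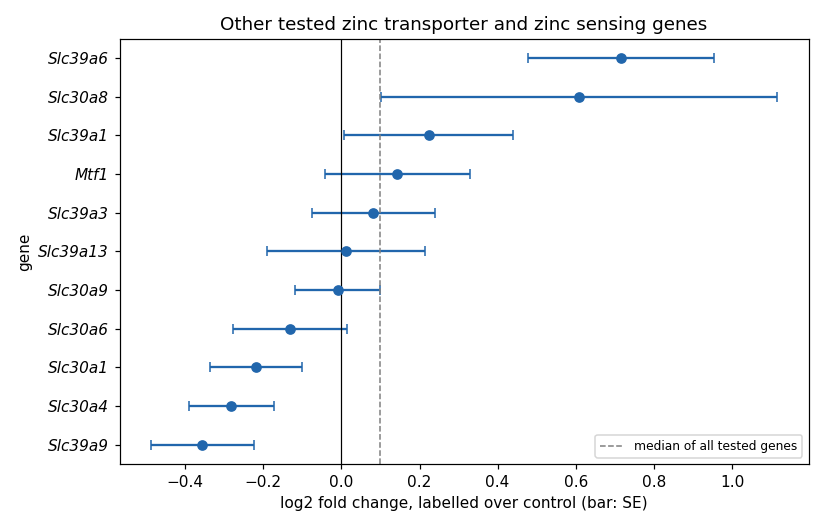
Log2 fold change, labelled over control, with its SE for the 11 tested zinc genes outside the 10. Slc39a6 (0.72) and Slc30a8 (0.61) lie farthest right and Slc39a9 (-0.36) farthest left; 0 of 11 had a limma adjusted p under 0.05.

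The zinc enzymes Cpa1 and Cpb1, which acinar cells secrete, were lower in every labelled library. Cpa1 was at 1.16%, 43.5%, 10.1% and 45.6% of the control mean in labelled libraries 1 to 4, and Cpb1 at 0.64%, 42.3%, 10.6% and 53.8%. Neither had a limma adjusted p under 0.05 (0.134 and 0.153), and both had an unadjusted p under 0.05. Of 16 genes of copper, iron and manganese transport, 12 were tested and 1 fell: Hamp, which encodes the iron hormone hepcidin, had 0, 2.26, 0.16 and 1.28 rescaled FPKM in the labelled libraries, against 14.8, 13.1, 9.63 and 5.67 in the controls (log2 -2.71, SE 0.42, limma adjusted p = 0.0443). Hamp values rested on 0 to 5.54 implied fragments in the labelled libraries and 13.5 to 24.2 in the controls. The call depended on single libraries: without any 1 control, or without labelled library 1 or 3, the adjusted p was between 0.0577 and 0.180. Hamp passed in 6 of 23 alternatives, and not, for example, with a pseudocount of 0.1 (0.0806), no minimum (0.103) or the equal sum (0.0707). The other 11 did not pass.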

How the data were processed

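Poly(A) RNA libraries (TruSeq, 8 PCR cycles, Genome Analyzer IIx, per the labels' protocols) of 8 pancreases were processed by the submitters with CASAVA 1.8, TopHat2 2.0.4, Bowtie and Cufflinks 2.0.1 on mm9 (NCBIM37), per the submitters' processing notes. The gene model release, the strand and the scaling used are each not given in the sources used here. The authors deposited gene-level FPKM with intervals, per the file headers, 1 table per library. The deposited sums differ between libraries, so all values were divided by 1 constant, 100000, and 1 rescaled FPKM is no fixed number of transcripts. Fragments behind a value were implied from its interval width as if that held counting error only, and no counts were used here. Some widths hold more: Pecam1 had 9.46 rescaled FPKM on 0.525 implied fragments in labelled library 3, against 8.84 on 545 in labelled library 1. A low implied number thus marks a wide interval and not always few fragments.

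Values of 14 gene IDs on several lines were summed, and 8 genes that Cufflinks could not estimate in some library were left out. Genes with a mean of at least 1 over the 8 libraries (11860) were tested on log2(rescaled FPKM + 1) by limma 3.58.1 (R 4.3.3), with an intensity trend and no covariate, two-sided, with Benjamini-Hochberg adjustment over all of them at 0.05. The pseudocount makes fold changes of low genes too small. The labels give the 2 groups and no pairing. The 10 genes, the gene lists and the tests were chosen with earlier results of these data known. Named genes are the 10, Gata6, the genes of the lists that pass (the 2 of highest mean where none does), and the 3 protein-coding genes nearest in profile to each of the 10, of those with a GENCODE M21 biotype (31818 IDs matched). All 11 tested zinc genes and a few others were named after their values were seen, as was the list of 71 enzyme and granule genes written. The fit was tested on simulated data. Promoter windows come from RefSeq (GRCm38.p6), matched by symbol for 9 of the 10; that build differs from the files' mm9, and no coordinates were converted. Alternatives were 2 pseudocounts, 2 minimums, 5 scalings, 2 variance models, the title prefix as covariate or split, and libraries left out. 1 gene near Slc39a5 in profile is not reported here.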

Additional observations from a re-analysis of the deposited data

Results flagged for a closer look

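Of 44 groups of 4 values examined (the 10 genes, Gata6 and the other zinc genes), 1 was marked because a single library stood apart; chance marks about 1 in 20. Slc30a8, the zinc carrier of insulin granules, had 6.81 rescaled FPKM in labelled library 1, against 1.24 in the next highest labelled library, a gap of 0.868 of the range and past Dixon's critical value. The controls had 0.401 to 0.766. The 8 beta cell markers summed to 5414 in labelled library 1, to 1388, 892 and 699 in labelled libraries 2 to 4 and to 512 to 1327 in the controls; of these markers Mafa was at 0 in labelled library 4 and control 1, and Nkx6-1 in control 3. Their part in the value of Slc30a8 was not tested.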

How the results depend on the processing

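The log2 fold changes of the 10 genes were recomputed under 23 alternatives. Slc39a5 (-4.03 to -0.93), Slc39a11 (-2.59 to -0.87), Slc30a2 (-1.79 to -0.36), Mt1 (-2.81 to -0.39) and Mt2 (-2.74 to -0.24) were negative in every alternative that gave a value. Slc39a7 and Slc39a14 had a positive sign under the equal sum (0.23 and 0.27) and the implied totals (0.71 and 0.68). Slc39a14 also stood at 0.011 when labelled libraries 1 and 3 were left out. With the ASK and BSH titles alone Slc39a14 was at 0.019 and Slc39a8 at -0.022. Slc30a5 and Slc30a7 turned to -0.15 and -0.048 under median-ratio scaling and to -0.077 and -0.12 under quantile normalization, and Slc30a5 to -0.056 with the prefix as covariate and -0.20 with BKD titles. Leaving out 1 library gave -0.058 to 0.094 for Slc30a5 (negative without control 2, control 4 or labelled library 4) and -0.15 to 0.71 for Slc39a8 (negative without labelled library 4). The cause of these changes was not tested, except that the scalings move the median of all genes (0.10 as deposited, 0.77 and 1.11 under the equal sum and implied totals). A minimum of 5 left Slc39a8, Slc30a2 and Slc30a7 without a value.

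Slc39a11 was among the genes with an adjusted p under 0.05 in 12 of the 23 and not in 11, among them each fit without 1 control or without labelled library 3 and each fit by prefix. The 49 genes were 26 higher and 23 lower; the split was 22 and 0 under the equal sum, 6 and 0 under implied totals, 41 and 10 under the protein-coding sum (added after seeing the data), and 4 and 1 with the prefix as covariate. Without 1 library the numbers higher and lower were between 7 and 2 (without control 2) and 1383 and 1209 (without labelled library 4). Other zinc genes that passed numbered 0 to 2 without 1 library, 2 only without labelled library 4, and 0 otherwise. The number of the 10 with a negative sign was 5 to 9. No paired analysis was possible because the labels give no replicate numbers; those used here follow accession order and only name a library. Among the 10 genes, wide intervals limit Slc39a5 in labelled library 1 (10.9 implied fragments) and Slc39a11 in labelled libraries 1 and 4 (28.8 and 29.0). They also limit Slc39a14 in the controls (as few as 11.6) and in labelled libraries 2 and 4 (23.2 and 22.2).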

Other observations

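Of 11 listed genes of folding and stress in the endoplasmic reticulum, the compartment from which ZIP7 releases zinc, 8 had a negative log2 fold change. The median of the 11 was -0.63, against 0.10 for all tested genes. None had a limma adjusted p under 0.05 and 4 had an unadjusted p under 0.05, all lower, a share near the 30.1% of all tested genes. P4hb, the protein disulfide isomerase, had 58.0, 351, 133 and 588 rescaled FPKM in labelled libraries 1 to 4, against 875, 559, 622 and 517 in controls 1 to 4 (log2 -1.65, SE 0.68, limma adjusted p = 0.152). Xbp1, the transcription factor of the unfolded protein response, had 43.1, 137, 106 and 297, against 203, 190, 191 and 179 (log2 -0.70, SE 0.52, limma adjusted p = 0.363). Labelled library 4 was above every control for Xbp1.

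The acute phase and STAT3 list, whose genes and Slc39a14 respond to interleukin-6 in liver, had a positive sign in all 8 tested of 9 genes (median 0.76), with none under an adjusted p of 0.05 in limma and 4 under an unadjusted p of 0.05, against 30.1% of all tested genes. Hp, haptoglobin, had 77.2, 20.5, 90.0 and 34.8 rescaled FPKM in the labelled libraries, against 12.9, 3.56, 2.61 and 6.14 in the controls (log2 2.93, SE 0.56, limma adjusted p = 0.078), and the groups did not overlap. Saa3, a serum amyloid, had 2.78, 17.3, 85.2 and 21.6, against 18.1, 14.9, 12.7 and 21.1 (log2 0.14, SE 0.80, limma adjusted p = 0.913). Slc39a14 itself was below every control in labelled libraries 1 and 3 and among the controls in 2 and 4. Of the glucocorticoid list, whose hormone also acts on Mt1 and Mt2, 7 of 8 genes were tested and none passed (median -0.13, 1 higher and 1 lower at an unadjusted p under 0.05). Its most abundant genes were Sgk1 (log2 -0.81, SE 0.43, limma adjusted p = 0.221) and Tsc22d3 (log2 -0.13, SE 0.23, limma adjusted p = 0.70). None of 4 alkaline phosphatases, enzymes that receive zinc through ZnT5 and ZnT7, reached the minimum level.

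Of the marker lists, 17 of 17 acinar genes had a negative sign with 0 passing and 11 lower at an unadjusted p under 0.05. Of all tested genes 30.1% had such a p, in either direction. Higher at that p were 10 of 12 macrophage and neutrophil, 9 of 9 fibroblast and stellate cell, 8 of 9 adipocyte and 3 of 6 lymphocyte genes. The macrophage and neutrophil genes that were not are S100a8 (log2 -0.17, SE 0.85) and S100a9 (log2 0.01, SE 0.88). Cidec, a lipid droplet protein, was the only marker to pass. It had 24.6, 22.6, 18.4 and 18.2 rescaled FPKM in the labelled libraries, against 4.15, 2.33, 5.62 and 7.90 in the controls (log2 1.95, SE 0.29, limma adjusted p = 0.0363), and passed in 8 of 23 alternatives. Without control 1, 2 or 3, or labelled library 1, 2 or 3, its adjusted p was between 0.0526 and 0.128. The duct (median 0.03), endothelial (0.14), beta cell (0.94) and alpha, delta and PP cell (0.29) lists had 0 passing genes, with 1 higher and 1 lower, 1 lower, 0, and 1 higher at an unadjusted p under 0.05.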
